A study of Homo sapiens with 6 samples.

Results

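The genes described here are 10 genes of the Wnt/beta-catenin pathway, several of them known targets or feedback regulators of that pathway, in AGS cells with and without silencing of the splicing factor gene SRSF2. They were taken by name from the deposited count table and are CTNNB1, AXIN2, DKK1, KREMEN1, LGR4, LGR5, NKD1, RNF43, ZNRF3 and TCF7, 10 of 56303 gene entries. RNA was sequenced in 6 libraries, made from total RNA with an mRNA-Seq kit. Of these, 3 were labelled WT and 3 came from cells given an siRNA against SRSF2 (siSRSF2, genotype label SRSF2 knockdown). AGS is an established human gastric cancer line, and both groups were grown in the same serum-containing medium. The labels give no control siRNA for the WT cells, no siRNA sequence or dose, no time after transfection, and do not say whether the 3 libraries of a group came from separate cultures, so p-values measure only the spread between these libraries, which may be technical. Sample titles of the silenced group read siSRSF, without the 2, and the genotype label names the gene.

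Wnt ligands bind Frizzled receptors and the co-receptors LRP5 and LRP6, which stops a cytoplasmic destruction complex built on axin and APC from marking beta-catenin for degradation. Beta-catenin then enters the nucleus and activates genes through TCF/LEF factors, and several of those genes encode brakes on the same pathway: AXIN2 rebuilds the destruction complex, NKD1 binds Dishevelled, RNF43 and ZNRF3 remove Frizzled from the cell surface, and DKK1 blocks LRP5 and LRP6 together with KREMEN1. R-spondins, acting through LGR4 and LGR5, relieve the brake set by RNF43 and ZNRF3. AGS cells are known to carry an activating mutation of CTNNB1, the beta-catenin gene, and to lack E-cadherin protein.

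Total counts per library ran from 47518943 to 50021152 in WT and from 26610937 to 36651623 in siSRSF2, so that fewer reads stand behind low levels in siSRSF2. Levels are given as CPM, read counts divided by the TMM-scaled library size. A floor of 3 counts was worth 0.0630 to 0.110 CPM depending on the library, which covers counting error alone. SRSF2 itself stood at 44.5, 46.4 and 44.1 CPM in WT and at 21.6, 21.8 and 24.9 CPM in siSRSF2 libraries (1.98-fold lower, edgeR adjusted p = 4.39e-13). The silenced and WT libraries did not overlap, although 36.7% of SRSF2 exon bases are shared with MFSD11 on the other strand. MFSD11 was lower as well (log2 fold change -0.41, SE 0.062, edgeR adjusted p = 2.55e-06), and the part of shared reads in the SRSF2 fall was not tested. The 6 epithelial markers summed to between 4128 and 4545 CPM in WT and between 3683 and 3945 CPM in siSRSF2, led by KRT8, while CDH1, the E-cadherin gene, was at 0.219 ± 0.0573 and 0.276 ± 0.148 CPM (SD, n = 3 per group). Of these, CLDN4 was higher and KRT8 lower. Of the leukocyte markers, CD3E was at 0 counts in 5 of the 6 libraries, PTPRC was at 0.0706 ± 0.0479 and 0.169 ± 0.0930 CPM, and CD68 was at 24.1 ± 0.794 and 25.5 ± 1.59 CPM and did not pass (edgeR adjusted p = 0.348). The 6 fibroblast markers summed to 58.8 to 61.8 CPM in WT and 65.5 to 69.3 CPM in siSRSF2 (4 higher, among them COL1A1 and DCN, and THY1 lower). The 6 endothelial markers summed to 3.46 to 3.71 and 1.58 to 2.66 CPM (PECAM1 and CDH5 lower). No marker was at 0 in all libraries, and the part of other cell types in the results below was not tested.

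The comparison of siSRSF2 with WT cells asks how the feedback genes of the pathway stood when SRSF2 was silenced. They went both ways: the secreted inhibitor DKK1 and the receptor-removing ligase ZNRF3 fell, the axin gene AXIN2 and the DKK1 co-receptor KREMEN1 rose about 3.1-fold each, and CTNNB1 and TCF7 fell by less. Of the 10 genes, 9 had enough counts to be tested, and 4 were higher (KREMEN1, AXIN2, NKD1, RNF43), 4 were lower (DKK1, ZNRF3, CTNNB1, TCF7) and LGR4 did not pass the edgeR quasi-likelihood test at an adjusted p of 0.05. Over all 23689 tested genes, 30.1% were higher, 29.0% were lower and 59.1% changed in either direction, so a count of 8 changed genes in 9 has a high background. Changes beyond 2-fold were found in 4 of the 9, against 19.3% of all tested genes. The median log2 fold change of the 9 was 0.06, beside 0.02 over all tested genes, and the groups did not overlap in 7 of the 9, beside 63.8% of all tested genes. In bulk RNA, less RNA in every cell and fewer cells holding it cannot be told apart.

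**Figure D1:**
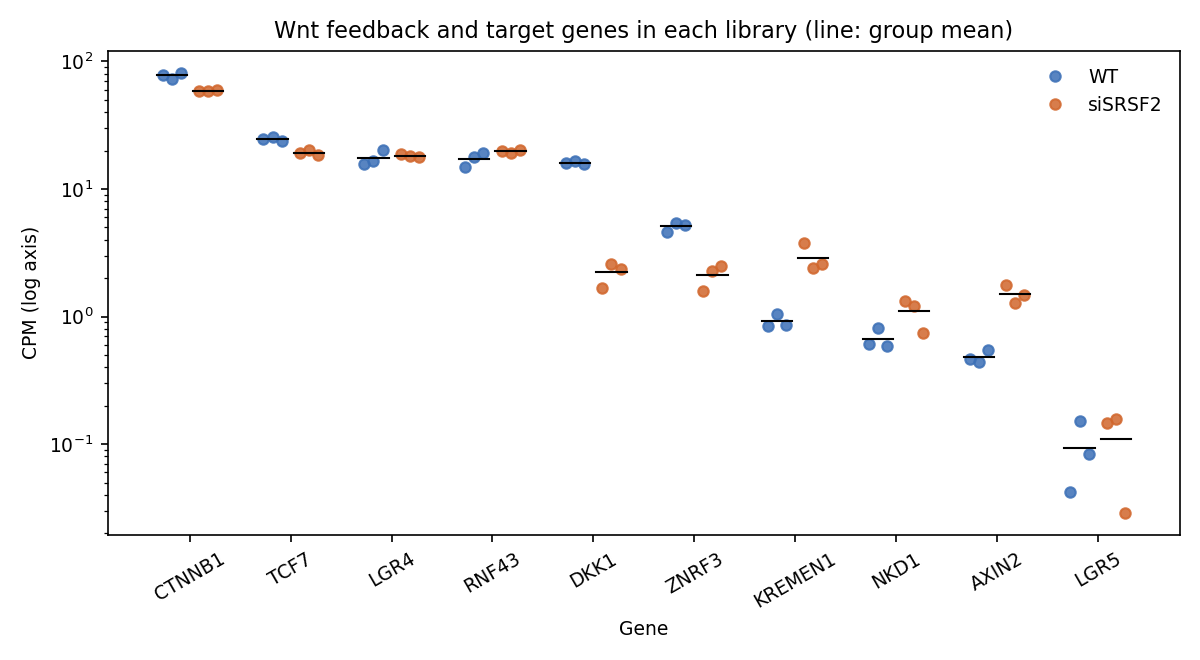
CPM on a log axis for each of the 10 genes, with 1 point per library (blue WT, orange siSRSF2) and a line at the group mean. DKK1 and ZNRF3 lie lower and KREMEN1 and AXIN2 higher in all 3 siSRSF2 libraries, while the LGR4 and LGR5 points of the groups overlap.

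**Figure D2:**
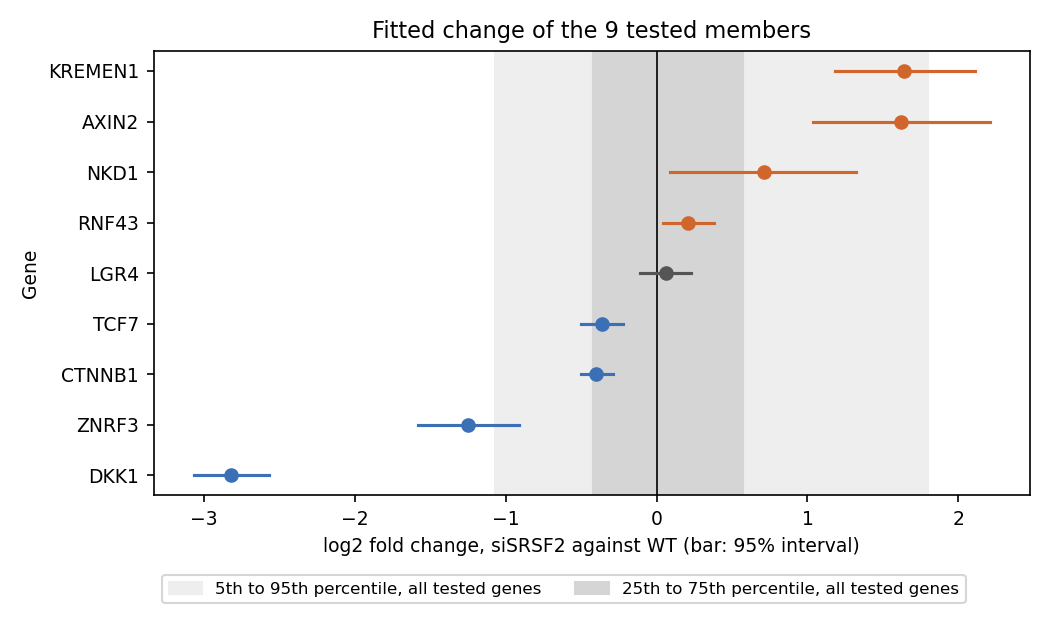
Fitted log2 fold change of siSRSF2 against WT for the 9 tested genes, with 95% intervals as bars and shaded bands for all 23689 tested genes. DKK1 (-2.82) and ZNRF3 (-1.25) lie below the band that spans the 5th to 95th percentile (-1.07 to 1.80), and KREMEN1 and AXIN2 lie near its upper edge.

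DKK1, which encodes a secreted protein that binds LRP5 and LRP6 and keeps them from the ligand complex, showed the largest change among the 9 tested genes. Its level was 15.9, 16.5 and 15.6 CPM in WT and 1.69, 2.59 and 2.37 CPM in siSRSF2 libraries, from counts of 756, 755 and 742 against 46, 100 and 82. Every siSRSF2 library was far below every WT library. This 7.08-fold fall (a log2 fold change of -2.82, SE 0.121, edgeR adjusted p = 1.06e-16) was exceeded by the fall of 31 of the 23689 tested genes. DKK1 lies on chromosome 10 at 52314296 to 52318042 on the plus strand (GRCh38, 6 merged exons), and shares no exon base with another entry of the table. Its promoter is shown because this gene moved furthest and because promoter windows were at hand for 5 of the 10 genes (CTNNB1, TCF7, DKK1, LGR4 and RNF43, in 7 windows, from RefSeq on GRCh38.p14). The window holds the 250 bases before the RefSeq start, chr10:52314031-52314280, plus strand, with capitals marking a match to the TCF/LEF motif:
DKK1 promoter: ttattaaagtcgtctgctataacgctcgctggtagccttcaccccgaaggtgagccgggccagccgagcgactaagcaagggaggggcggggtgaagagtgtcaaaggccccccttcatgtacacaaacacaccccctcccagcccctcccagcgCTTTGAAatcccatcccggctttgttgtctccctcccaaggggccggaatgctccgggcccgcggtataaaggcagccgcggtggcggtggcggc
The motif was searched as CTTTGAA or CTTTGAT on both strands, and no other motif was searched. DKK1 held 1 match, which begins 95 bases before the start, and the other 6 windows of the 10 genes held none of these letters. Of 35116 promoter windows of the same length, 5.94% held at least 1 match, and a match describes the letters and not a bound site.

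KREMEN1 encodes the single-pass receptor that forms a complex with DKK proteins and LRP6 and takes the co-receptor off the surface. It moved opposite to DKK1, from 0.840, 1.05 and 0.864 CPM in WT to 3.75, 2.39 and 2.57 CPM in siSRSF2 libraries. The counts were 40, 48 and 41 against 102, 92 and 89, so that the siSRSF2 libraries held more reads of this gene although they were shallower. The rise was 3.13-fold (log2 fold change 1.64, SE 0.225, edgeR adjusted p = 5.1e-07), with no overlap between groups. KREMEN1 lies on chromosome 22 at 29073078 to 29168333, plus strand, in 11 merged exons.

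The R-spondin axis pairs the receptors LGR4 and LGR5 with the membrane E3 ubiquitin ligases RNF43 and ZNRF3. LGR4 (chromosome 11, 27365961 to 27472775, minus strand) was at 15.8, 16.7 and 20.1 CPM in WT and 18.7, 18.3 and 17.9 CPM in siSRSF2 libraries. The siSRSF2 values fell inside the WT range. The log2 fold change was 0.06 with a 95% interval from -0.11 to 0.23 (edgeR adjusted p = 0.544), and the only setting under which it passed was library totals without TMM (edgeR adjusted p = 0.049, log2 fold change 0.19). LGR5, a marker of intestinal and gastric stem cells (chromosome 12, 71439770 to 71586310, plus strand), had counts of 2, 7 and 4 in WT and 4, 6 and 1 in siSRSF2 libraries. Its counts lay around the floor of 3 counts in both groups, it was the member left out by the filter on low counts, and no difference was detectable at this depth.

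RNF43 and ZNRF3, close relatives that act on the same receptors, went in opposite directions. ZNRF3 (chromosome 22, 28883592 to 29057487, plus strand) stood at 4.64, 5.43 and 5.23 CPM in WT and at 1.58, 2.28 and 2.48 CPM in siSRSF2 libraries. All siSRSF2 values were below all WT values. The 2.38-fold fall (log2 fold change -1.25, SE 0.162, edgeR adjusted p = 2.13e-07) was exceeded by the fall of 699 other genes that passed the test. RNF43 (chromosome 17, 58352500 to 58417595, minus strand) stood at 14.8, 17.7 and 19.0 CPM in WT and at 19.8, 19.3 and 20.2 CPM in siSRSF2 libraries. Its siSRSF2 values sat just above the highest WT value, a 1.16-fold rise (log2 fold change 0.21, SE 0.083, edgeR adjusted p = 0.033). The RNF43 call ended without WT replicate 1 (log2 fold change 0.10, edgeR adjusted p = 0.303), without WT replicate 2 (adjusted p = 0.0577), without siSRSF2 replicate 1 (0.0572) and without siSRSF2 replicate 3 (0.0896), and in DESeq2 (0.078). RNF43 also shares 20.3% of its exon bases with TSPOAP1-AS1 on the other strand, which fell (log2 fold change -0.68, SE 0.083, edgeR adjusted p = 7.04e-08), and 1.91% with SUPT4H1 on the same strand.

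Because both ligases were counted in the same libraries, their ratio does not depend on library scaling. ZNRF3 reads numbered 0.314, 0.307 and 0.275 per RNF43 read in WT and 0.0798, 0.118 and 0.123 in siSRSF2 libraries. The log2 ratio was -1.74 ± 0.103 in WT and -3.24 ± 0.339 in siSRSF2 (SD, n = 3 per group), a difference of -1.50 with no overlap. An exact two-sided permutation test over libraries gave p = 0.1, the smallest that 3 against 3 allow, and 0.15 after Benjamini-Hochberg adjustment over the 3 ratios tested. ZNRF3 and KREMEN1 are neighbours on the plus strand of chromosome 22, 15590 bases apart, with only C22orf31 annotated between them in the table (0, 2 and 2 counts in WT, 0 in each siSRSF2 library). ZNRF3 had 5.53, 5.17 and 6.05 reads per KREMEN1 read in WT and 0.422, 0.957 and 0.966 in siSRSF2 libraries. These are ratios of read counts, not of levels per length, and KREMEN1 has the longer exons (7977 against 6968 bases). Per kilobase, ZNRF3 was above KREMEN1 in each WT library and in siSRSF2 replicates 2 and 3, and below it in siSRSF2 replicate 1. This log2 ratio differed by -2.91 (2.46 ± 0.113 in WT, -0.45 ± 0.681 in siSRSF2; exact permutation p = 0.1, adjusted 0.15). The LGR5/LGR4 ratio differed by 0.12, less than the SD within either group (0.802 and 1.099; exact permutation p = 1). The intronic transcript ZNRF3-IT1, on the same strand with no shared exon base, fell less than its host (10.2 to 7.24 CPM, edgeR adjusted p = 0.000513, log2 fold change -0.48), and the difference between these changes was not tested.

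**Figure D3:**
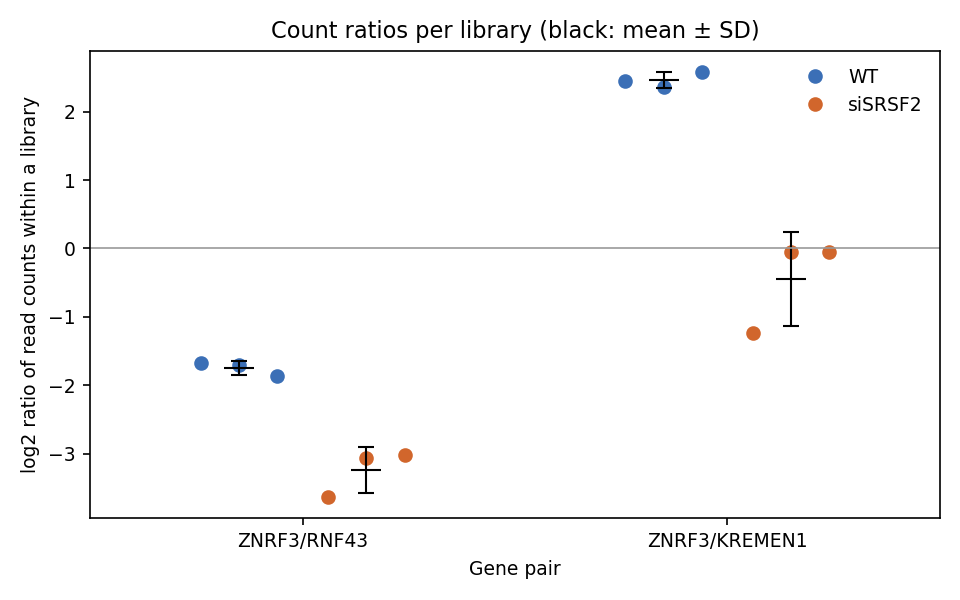
log2 ratio of read counts within each library for ZNRF3 over RNF43 and ZNRF3 over KREMEN1, with 1 point per library (blue WT, orange siSRSF2) and black marks for the mean ± SD. Both ratios are lower in all 3 siSRSF2 libraries, and the lowest point of each pair is siSRSF2 replicate 1 (-3.63 and -1.24).

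Of the cytoplasmic feedback genes, AXIN2, widely read as a reporter of beta-catenin activity, rose from a low level. It was at 0.462, 0.438 and 0.548 CPM in WT and 1.77, 1.27 and 1.47 CPM in siSRSF2 libraries. These levels rest on 22, 20 and 26 counts against 48, 49 and 51, and the groups did not overlap. The rise was 3.08-fold (log2 fold change 1.62, SE 0.284, 95% interval 1.04 to 2.21, edgeR adjusted p = 1.91e-05). AXIN2 (chromosome 17, 65528563 to 65561647, minus strand) shares 25.2% of its exon bases with CTD-2535L24.2 on the same strand, which was also higher (log2 fold change 1.76, SE 0.508, edgeR adjusted p = 0.00429), so the values of both are uncertain to the extent that shared reads were split or dropped.

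NKD1 (chromosome 16, 50548330 to 50649249, plus strand) stood at 0.609, 0.810 and 0.590 CPM in WT and at 1.33, 1.22 and 0.750 CPM in siSRSF2 libraries, from between 26 and 47 counts each. The groups overlapped, since siSRSF2 replicate 3 lay below WT replicate 2. The 1.63-fold rise (log2 fold change 0.71, SE 0.300, edgeR adjusted p = 0.0459) was near the threshold. It did not pass in DESeq2 (adjusted p = 0.0874) or voom (0.0573), nor without WT replicate 1 (0.123), WT replicate 3 (0.133), siSRSF2 replicate 1 (0.16) or siSRSF2 replicate 2 (0.142).

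CTNNB1 and TCF7, the nuclear effectors among the 10 genes, were moderately lower. CTNNB1 (chromosome 3, 41194837 to 41260096, plus strand) had 78.6, 72.8 and 81.6 CPM in WT and 58.6, 58.3 and 60.0 CPM in siSRSF2 libraries. The groups did not overlap, and the fall was 1.32-fold (log2 fold change -0.40, SE 0.052, edgeR adjusted p = 2.38e-07). TCF7, which encodes the TCF1 factor (chromosome 5, 134114711 to 134151865, plus strand), had 24.8, 25.5 and 24.0 CPM in WT and 19.2, 20.3 and 18.4 CPM in siSRSF2 libraries. It fell 1.28-fold without overlap (log2 fold change -0.36, SE 0.069, edgeR adjusted p = 5.5e-05), though not in a test for more than a 1.2-fold change (edgeR adjusted p = 0.055). Both changes lay within the middle of the distribution, with 26.0% and 27.8% of tested genes lower still.

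The make-up of the TCF/LEF family differed as well. TCF7L1, the member best known as a repressor, rose from 1.09 ± 0.142 to 4.55 ± 0.558 CPM (edgeR adjusted p = 1.97e-10, log2 fold change 2.06 with SE 0.182), and TCF7L2 fell (26.6 ± 1.40 to 20.6 ± 1.42 CPM, log2 fold change -0.37, edgeR adjusted p = 5.21e-05). Per kilobase of exon, TCF7 made up 35.5, 38.1 and 35.5% of the summed level of the 4 TCF/LEF genes in WT and 30.5, 33.8 and 30.1% in siSRSF2 libraries. TCF7L1 went from 3.90, 3.88 and 3.13% to 14.8, 16.7 and 19.3%, while TCF7L2 made up 58.3% ± 2.40 and 50.2% ± 2.22 (SD, n = 3 per group). The shares of these 3 genes did not overlap between groups, and no test was run on the shares. LEF1 stayed at 2.21% or less in each library.

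**Figure D4:**
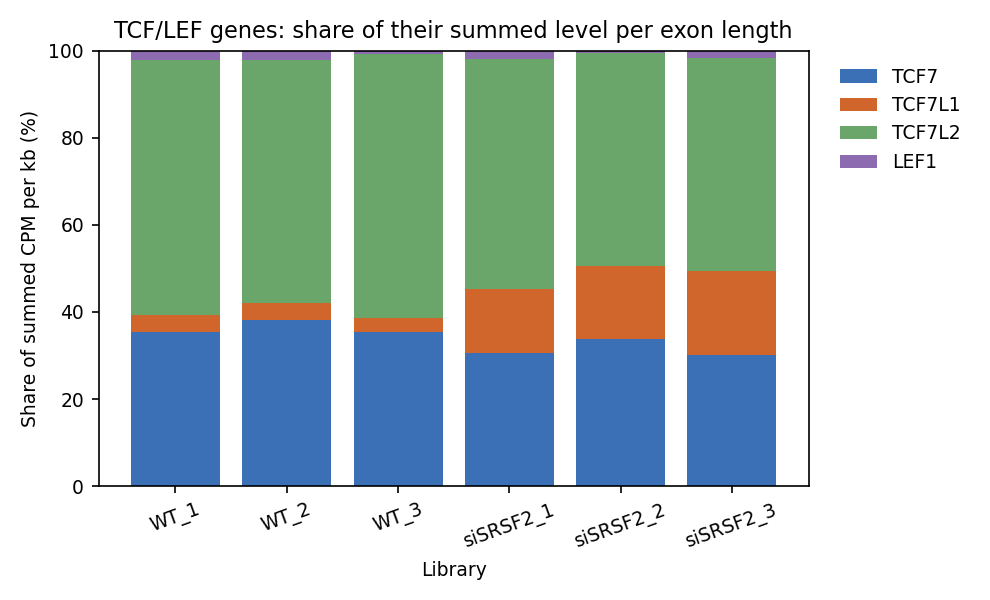
Stacked bars giving, for each of the 6 libraries, the share in percent of TCF7, TCF7L1, TCF7L2 and LEF1 in their summed CPM per kilobase of exon. The TCF7L1 segment spans 3.13 to 3.90% in the WT libraries and 14.8 to 19.3% in the siSRSF2 libraries.

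Levels of different genes can be compared only per length, here as CPM per kilobase of merged exon. In WT cells the order was CTNNB1 (11.7 ± 0.670), DKK1 (7.26 ± 0.209), LGR4 (2.76 ± 0.356), TCF7 (2.46 ± 0.0755), RNF43 (2.28 ± 0.289), ZNRF3 (0.732 ± 0.0589), KREMEN1 (0.115 ± 0.0145), AXIN2 (0.0923 ± 0.0111), NKD1 (0.0384 ± 0.00699) and LGR5 (0.0177 ± 0.0107). Neighbours that differed by less than the sum of their SDs were LGR4 and TCF7, TCF7 and RNF43, and KREMEN1 and AXIN2. In siSRSF2 cells the order of CPM per kilobase was CTNNB1 (8.92 ± 0.135), LGR4 (2.89 ± 0.0583), RNF43 (2.64 ± 0.0603), TCF7 (1.91 ± 0.0951), DKK1 (1.01 ± 0.213), KREMEN1 (0.364 ± 0.0931), ZNRF3 (0.304 ± 0.0678), AXIN2 (0.288 ± 0.0477), NKD1 (0.0630 ± 0.0176) and LGR5 (0.0211 ± 0.0135). DKK1, next to CTNNB1 in WT, stood below LGR4, RNF43 and TCF7, and KREMEN1, ZNRF3 and AXIN2 did not differ beyond their spread. NKD1 has 17425 merged exon bases in the table, the largest length of the 10 genes, which lowers its value per length.

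In each of the 4 genes that changed beyond 2-fold, siSRSF2 replicate 1 lay furthest in the direction of the change, beside 35.0% of all genes called beyond 2-fold. It did so in 5 of the 8 genes that passed (DKK1, ZNRF3, KREMEN1, AXIN2 and NKD1), beside 34.3% of all genes that passed. Over all genes, siSRSF2 replicate 2 lay furthest most often (38.1% of those that passed and 40.0% of those beyond 2-fold). Replicate 1 of siSRSF2 had the lowest total count of the 6 libraries (26610937), and the part of depth in this pattern was not tested. Without it the log2 fold changes were -2.68 for DKK1, -1.09 for ZNRF3, 1.44 for KREMEN1 and 1.50 for AXIN2, all still past the test.

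Other genes of the pathway, in lists arranged by role, also moved in both directions. Of 114 such genes found, 84 were tested, and 27 were higher, 30 lower and 27 did not pass, so that 67.9% changed (background 59.1%). With scaling by library totals, which moved the median of all genes by 0.13 on the log2 scale, 34 were higher and 24 lower.

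Among ligands and the genes for their secretion, 4 of 14 tested were higher and 4 lower. WNT6 rose from 1.05 ± 0.109 to 4.55 ± 0.674 CPM (edgeR adjusted p = 1.45e-10, log2 fold change 2.12) and WNT8B from 0.305 ± 0.0635 to 0.977 ± 0.0219 CPM. WNT5A and WNT16 were the other higher genes, and both calls ended without WT replicate 1 (edgeR adjusted p = 0.164 and 0.107), without WT replicate 2 or without siSRSF2 replicate 3. The WNT5A call also ended in DESeq2 (adjusted p = 0.0675), with no filter beyond a total above 0 (0.268) and in the 1.2-fold test (0.81). The WNT16 call also ended without siSRSF2 replicate 2 (edgeR adjusted p = 0.0963). WNT7B fell from 6.71 ± 0.709 to 2.17 ± 0.440 CPM (edgeR adjusted p = 7.28e-10, log2 fold change -1.61 with SE 0.153), WNT10B fell by 0.55 on the log2 scale, and WNT3 and WNT9A were the other lower genes. The WNT9A call ended with library totals (adjusted p = 0.224) and without either of WT replicates 2 and 3 or any 1 siSRSF2 library. It also ended in DESeq2 (adjusted p = 0.0797), voom (0.0562) and the 1.2-fold test (0.208). The replicate block (0.0617) and a filter on mean CPM of at least 1 (0.0783) ended it as well. Of 12 tested receptors, 3 were higher and 3 lower, the latter being FZD6, ROR1 and RYK. ROR2, a WNT5A receptor, rose from 7.17 ± 0.432 to 12.1 ± 1.62 CPM and its relative ROR1 fell from 2.91 ± 0.191 to 1.41 ± 0.126 CPM (log2 fold changes 0.76 and -1.04, edgeR adjusted p = 4.82e-07 and 2.63e-05). FZD4 and FZD7 were the other higher receptors, FZD7 not without WT replicate 2 or 3 or siSRSF2 replicate 1 or 2 (edgeR adjusted p between 0.106 and 0.221). The FZD7 call also ended in DESeq2 (adjusted p = 0.0911), with RLE in place of TMM scaling (0.0529) and with no filter beyond a total above 0 (0.156). In the 1.2-fold test FZD7 (edgeR adjusted p = 0.132), FZD4 (0.193) and FZD6 (0.307) did not pass. The FZD6 call also ended with library totals (edgeR adjusted p = 0.0565). The Frizzled co-receptors LRP5 and LRP6, on which DKK1 acts, did not pass (log2 fold changes 0.07 and 0.01, edgeR adjusted p = 0.336 and 0.87), but were higher with scaling by library totals (0.20 and 0.14).

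Around the R-spondin axis, RSPO3 fell from 2.09 ± 0.274 to 1.12 ± 0.433 CPM (edgeR adjusted p = 0.00236, log2 fold change -0.92 with SE 0.249), and RSPO1 and RSPO2 did not pass. In the list of secreted and surface inhibitors, 3 of 7 tested genes were higher and 2 lower. Besides KREMEN1, the higher genes were KREMEN2, its paralog (2.26 ± 0.176 to 4.92 ± 0.874 CPM, log2 fold change 1.12, edgeR adjusted p = 1.04e-06), and NOTUM, a Wnt-inactivating carboxylesterase (0.163 ± 0.133 to 0.710 ± 0.241 CPM, log2 fold change 2.12, edgeR adjusted p = 0.000564). NOTUM rested on only 4, 4 and 15 counts in WT and 12, 35 and 27 in siSRSF2 libraries, near the floor of 3 counts in WT replicates 1 and 2. Besides DKK1, the decoy receptor gene SFRP1 fell from 24.7 ± 0.469 to 11.3 ± 0.417 CPM (edgeR adjusted p = 5.68e-13, log2 fold change -1.12 with SE 0.074). DKK3, a divergent relative of DKK1, was at 7.96 ± 0.103 and 9.19 ± 1.06 CPM and did not pass (edgeR adjusted p = 0.0966), but passed without siSRSF2 replicate 3 (0.0252) and with library totals (0.00709).

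The Dishevelled genes, whose products relay the signal from Frizzled, did not move together. DVL2 rose from 11.5 ± 0.474 to 20.5 ± 0.883 CPM (log2 fold change 0.84, edgeR adjusted p = 4.78e-10), DVL1 fell from 35.6 ± 0.537 to 27.7 ± 0.660 CPM (log2 fold change -0.36, edgeR adjusted p = 6.55e-06), and DVL3 did not pass (log2 fold change -0.01). Of the Dishevelled inhibitors, NKD2 rose with NKD1 (0.228 ± 0.0302 to 0.712 ± 0.258 CPM) and CXXC5 rose from 7.62 ± 0.344 to 12.5 ± 0.735 CPM. In the destruction complex list, 4 of 12 were higher and 4 lower, and AXIN2 had the highest log2 fold change of the 12. AXIN1, its constitutive relative, fell from 50.4 ± 0.700 to 36.8 ± 1.63 CPM (edgeR adjusted p = 7.44e-08, log2 fold change -0.45 with SE 0.055). GSK3B (-0.39), AMER1 (-0.66) and APC (-0.18) were the other lower genes on the log2 scale. APC did not pass with library totals (edgeR adjusted p = 0.342) or in the 1.2-fold test (0.935). TNKS, a tankyrase that marks axins for degradation, rose from 41.1 ± 1.94 to 69.1 ± 5.07 CPM (log2 fold change 0.75, edgeR adjusted p = 1.48e-11). BTRC and TNKS2 were higher too, TNKS2 not without WT replicate 1 (edgeR adjusted p = 0.11), WT replicate 2 (0.17), siSRSF2 replicate 2 (0.109) or siSRSF2 replicate 3 (0.0517). The TNKS2 call also ended in DESeq2 (adjusted p = 0.0694), with no filter beyond a total above 0 (0.416) and in the 1.2-fold test (0.976).

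In the list of beta-catenin, the TCF/LEF factors and their co-factors, 8 of 17 were higher and 7 lower. TLE2, which encodes a Groucho-family co-repressor, rose (3.76 ± 0.556 to 14.2 ± 1.23 CPM, log2 fold change 1.92, edgeR adjusted p = 8.41e-14). The co-activator gene CREBBP fell from 193 ± 1.94 to 102 ± 1.16 CPM (log2 fold change -0.91, edgeR adjusted p = 9.36e-16) and CDC73 fell by 0.52 on the log2 scale. At cell junctions, JUP, the plakoglobin gene and a close relative of CTNNB1, rose from 7.48 ± 0.626 to 25.3 ± 2.14 CPM (edgeR adjusted p = 1.58e-15, log2 fold change 1.76 with SE 0.087), opposite to CTNNB1. The catenin partner genes CTNNA1 (-0.06) and CTNND1 (0.05) did not pass, with CTNND1 higher under library totals (0.18).

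Of 15 further known target genes of the pathway that were tested, 11 were lower and 3 higher, where 29.0% and 30.1% of all tested genes were lower and higher. Their median log2 fold change was -0.39, beside 0.02 over all genes, and no test of the list was run. Under library totals the counts were 9 lower and 3 higher. CCND1, the cyclin D1 gene, fell from 179 ± 1.92 to 37.5 ± 3.15 CPM (edgeR adjusted p = 1.56e-21, log2 fold change -2.25 with SE 0.055) and JAG1 from 27.8 ± 1.40 to 14.4 ± 0.998 CPM. FOSL1 fell by 2.27 and MYC by 0.62 on the log2 scale. The higher genes were TNFRSF11B (1.08), EPHB3 (1.84) and WISP1 (2.23), the latter pair from WT levels of 0.184 ± 0.0624 and 0.115 ± 0.0674 CPM.

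**Figure D5:**
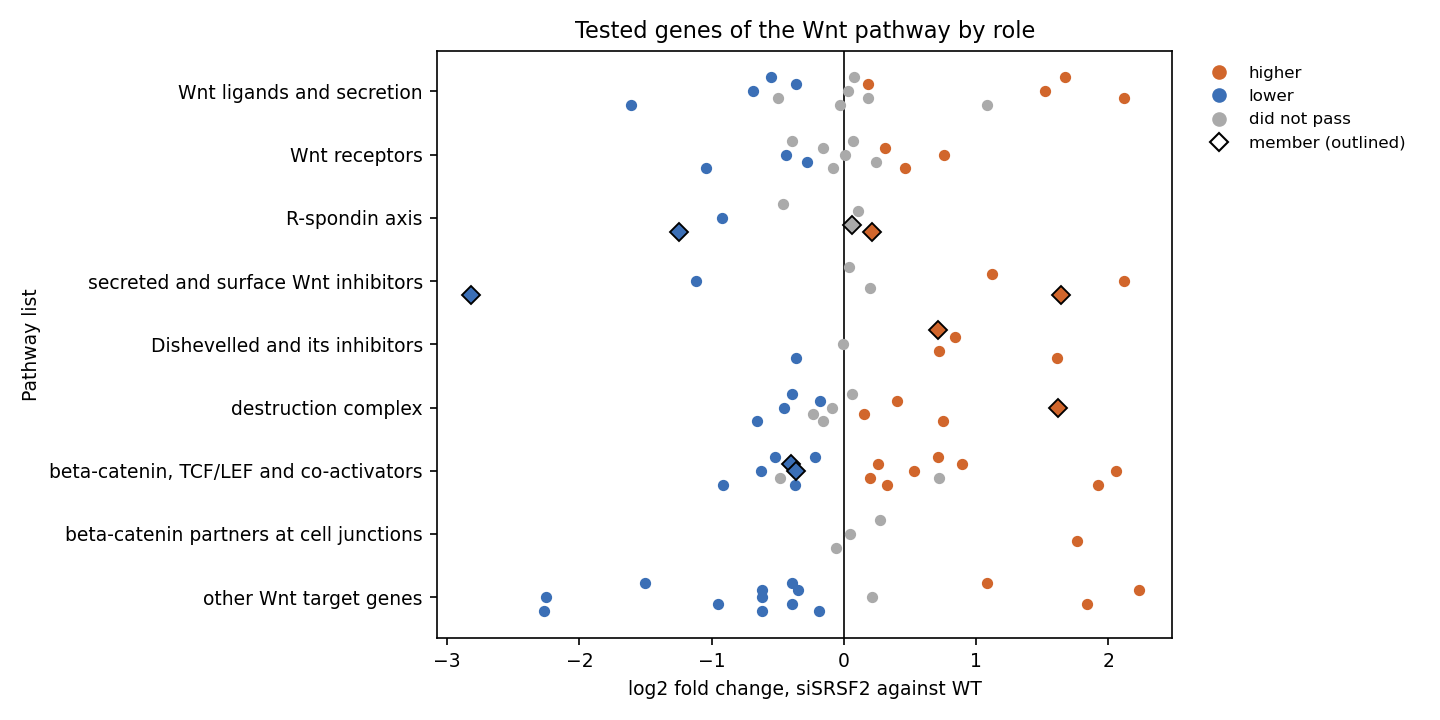
log2 fold change of siSRSF2 against WT for each tested gene of 9 pathway lists, 1 point per gene, coloured by whether it was higher (orange), lower (blue) or did not pass (grey), with outlined diamonds for the members. Most lists span 0, and the list of other Wnt target genes holds 11 lower and 3 higher genes.

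Profiles most like those of AXIN2 and DKK1 were found by the root mean square difference of centred log2 CPM over the 6 libraries, among 17149 and 17148 other tested genes of at least 1 CPM on average. For AXIN2 the closest were ADAMTS4 (difference 0.066), INAFM1 (0.072) and ACBD4 (0.084), with log2 fold changes of 1.61, 1.65 and 1.61. For DKK1 they were TFPI2, a serine protease inhibitor gene (0.177, log2 fold change -2.63), the stress-inducible chaperone gene HSPA1A (0.230, -3.01), whose reads can be shared with its near-identical copy HSPA1B, and RP4-621F18.2 (0.233, -2.64). No other member was among them, but AXIN2, NKD1 and LGR5 lay below 1 CPM on average and so were not candidates.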

How the data were processed

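RNA libraries of AGS cells were made with a SMARTER mRNA-Seq kit from TRI Reagent extracts, per the labels' protocols. The table deposited by the authors holds unnormalized counts for each gene in 6 libraries. HISAT2 2.0.5 and featureCounts 1.5.0-p3 were named in the submitters' processing notes, which give the build as mm10, a mouse build. The table itself holds human names: of 36027 names found once both there and in GENCODE 29, 93.2% had the same GRCh38 chromosome, start, end and strand, as did 9 of the 10 members (CTNNB1 differed in its start). The strand setting, and how reads matching several genes were handled, were not stated in the labels or notes used.

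Counts were fitted in R 4.3.3 with edgeR 4.0.16 (filterByExpr, minimum count 10, TMM, robust quasi-likelihood F test, group as the only term), with Benjamini-Hochberg adjustment over all 23689 tested genes. SEs were derived from the fold change and its F statistic. The pipeline was tested on simulated counts. Replicate libraries differed beyond counting noise (chi-square per gene 3.83 to 8.75), so none was treated as the same library deposited again. Separate libraries of 1 culture would also differ in this way. Exact permutation tests over libraries were used for the ratios. Ratios of counts used a pseudocount of 0.5. DESeq2 1.42.0, limma 3.58.1 (voom), other scalings and filters, a replicate block, a 1.2-fold threshold and leaving out each library were alternatives.

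The members and lists were chosen with earlier results of these data known. Named genes were SRSF2, the members, the 4 tested non-members with the smallest p in each list, and the 3 closest profiles of AXIN2 and DKK1. Other genes were named after their values were seen, to complete a count or a family, or because they overlap a member. The summed level of the leukocyte marker list is not reported here.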

Additional observations from a re-analysis of the deposited data

How the results depend on the processing

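The 4 lower members were called under every alternative except the test against a 1.2-fold change, which left 3 (TCF7 lost). The 4 higher members became 2 with DESeq2, 2 with no filter beyond a total above 0, 2 with the 1.2-fold test, and between 2 and 3 when a library was left out (2 without WT replicate 1 or without siSRSF2 replicate 1). KREMEN1 and AXIN2 passed in each setting, and the changing calls were NKD1 and RNF43. With the replicate number as a block, 3 members were higher, as NKD1 no longer passed (edgeR adjusted p = 0.0614), and 4 lower, and the ratio differences were -1.50, 0.12 and -2.91 with exact permutation p = 0.25, 1 and 0.25, where 0.25 is the smallest that 3 pairs allow. Same-numbered libraries did not deviate together (correlations 0.0432, -0.0767 and -0.0548), so the numbers were not taken as pairs. The difference in the log2 LGR5/LGR4 ratio ran from -0.23 to 0.75 with a library left out, and was negative without WT replicate 1 (-0.23), siSRSF2 replicate 1 (-0.19) or siSRSF2 replicate 2 (-0.21). The ZNRF3/RNF43 and ZNRF3/KREMEN1 differences ran from -1.61 to -1.30 and from -3.11 to -2.52. Of 125 alternative values for member fold changes, 107 kept their side of the threshold, 17 lost the call and 1 gained it (LGR4 with library totals). The sign of the LGR4 fold change, never called otherwise, was negative with no filter and without WT replicate 1 (-0.01 in both). The 13991 changed genes became between 12966 and 13841 with a library left out. Scaling by library totals moved the higher share of all changed genes from 51.0 to 60.9%, and with no filter 31.8% of 44361 genes changed. LGR5, at 7 counts or fewer per library, is limited by depth. The causes of these changes were not tested.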
